A study of Mus musculus with 6 samples.

Results

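The sterol and fatty acid synthesis genes are 34 genes chosen by name for their known roles in the mevalonate pathway, in the steps from farnesyl diphosphate to cholesterol, in the control of these steps by SREBP, and in the making, elongation and desaturation of fatty acids. Of these, 33 were found by symbol in a gene table of 21639 rows and 21376 distinct symbols, and *Tm7sf2* was not analysed here. They filled 34 rows, because *Hmgcs1* has 2 rows with the same values. RNA-Seq had been done on 3 mouse lines, each as embryonic stem cells (ESCs, D0) and after 3 days as embryoid bodies (EBs, D3). Each of the 6 conditions is 1 library, so differences between single libraries have no replicate check and carry no p-value. The tests come from 1 fit over the 6 libraries.

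All libraries carry the strain label V6.5 (129SvJaexC57BL/6), while the study's methods give KH2 ESCs as the parent of the transgenic lines. The histone variant H2A.Z was expressed as a YFP fusion from a doxycycline-inducible CMV promoter on a lentivirus, in its wild-type form (H2AZ WT) or with the acidic patch substitutions G92N, D97N and S98K (H2AZ-AP3 variant). YFP-positive cells were sorted, and short hairpins against the untranslated end of the endogenous transcript were then introduced. By this scheme the H2AZ WT controls would carry a hairpin and a transgene as well. The study also shows these lines without the hairpin, and its text does not state which were used for RNA-Seq. The remaining line is labelled H2AZ KD. The study put its hairpins into the inducible transgenic lines and used this name for depletion of the endogenous gene, and which transgene the line carries, and whether it was induced, is not given in the sources used here. ESCs were grown with serum and LIF, without feeder fibroblasts in the last passage, and EBs were formed on non-adherent plates without LIF.

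Cells build cholesterol from acetyl-CoA through mevalonate, isoprenoid diphosphates, squalene and lanosterol, and they build fatty acids from the same acetyl-CoA. The transcription factors SREBP-1 and SREBP-2 reach the nucleus when sterols in the endoplasmic reticulum are low, because SCAP then escorts them to the Golgi for cleavage, while INSIG proteins hold SCAP back when sterols are abundant. Nuclear SREBP binds sterol response elements, usually next to a CCAAT box bound by NF-Y, at most of the genes treated here, and dividing cells draw on this pathway for new membrane.

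The promoters of the members were searched for these letters in RefSeq windows on GRCm38.p6, from 250 bases before to 50 after each start, and 26 members were matched. The sterol response element letters TCACNCCAC, on either strand, were found for 1 of the 26 members, *Hmgcs1*, and for 1.44% of all genes. The CCAAT letters, on either strand, were found for 21 of the 26 members and 41.1% of all genes, and the E-box CACGTG for 5 of the 26 and 8.09% of all genes. Matches of the 3 motifs were counted separately, and matches of different motifs may share bases. Windows of 30 bases are shown for *Hmgcs1* and for members that were over 1.5-fold higher than H2AZ WT at D3 in each of the other lines, with the sterol response element (*Hmgcs1*) or CCAAT box (the others, ATTGG where it lies on the other strand) in capitals, on the strand of the gene. Where a promoter holds more than 1 CCAAT match (2 for *Mvd*, 2 for *Idi1* and 3 for *Sc4mol*), the one nearest the start whose window lies wholly before it is shown. *Hmgcs1* also has CCAAT matches, which are not shown.
Hmgcs1: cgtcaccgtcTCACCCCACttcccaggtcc
Mvd: ccggccagcgggCCAATcatatggcagcgc
Idi1: tgcctccagctgATTGGcgagcccgggcat
Lss: ggtgatgctctgATTGGccgagctcgcatc
Cyp51: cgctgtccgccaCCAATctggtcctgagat
Sc4mol (Msmo1 in RefSeq): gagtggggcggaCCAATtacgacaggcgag
Matched exactly to mm9, the build of the gene table, these CCAAT windows lie at chr8:124967332-124967361 (*Mvd*, minus strand), chr13:8884795-8884824 (*Idi1*, plus), chr10:75994276-75994305 (*Lss*, plus), chr5:4104709-4104738 (*Cyp51*, minus) and chr8:67212413-67212442 (*Sc4mol*, minus). The first base of the motif stands at -137 for *Hmgcs1*, -27 for *Mvd*, -45 for *Idi1*, -62 for *Lss*, -29 for *Cyp51* and -55 for *Sc4mol*, all upstream of the RefSeq start. A match describes these letters and is not a binding site. *Fdps* and *Scd1* were not matched to a promoter.

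Expression is given as RPKM, reads scaled by transcript length and by the mapped reads of the library, and values are listed in the order H2AZ WT, H2AZ KD, H2AZ-AP3. *H2afz*, the gene of H2A.Z, stood at 279, 343 and 304 RPKM at D0 and 258, 236 and 394 RPKM at D3. It was not lower in the D0 library labelled H2AZ KD than in the others, and transgene reads fall on the same coding exons, so the table does not measure depletion of the endogenous transcript and the KD libraries are named by their label. Estimated depth lay between 16.8 and 31.2 M reads, with a ratio of 1.85 between the deepest library (H2AZ-AP3, D0) and the shallowest (H2AZ WT, D0). The counting standard error of a member's log2 ratio had a median of 0.05 and reached 0.12 (*Ebp*), for 32 members with an annotated transcript, and it covers counting error only, since the reads carry no molecular identifiers and are not independent molecules. Summed ESC markers (6 of 7 in the table) ran from 1018 to 1065 RPKM in ESCs and from 702 to 873 RPKM in EBs. The D0 libraries thus express ESC markers, and the EBs still held transcripts of them at D3. *Pou5f1*, the largest part, stood at 421, 413 and 540 RPKM and then at 448, 358 and 456 RPKM. *Klf4* went from 121, 131 and 65.9 RPKM to 17.4, 17.1 and 14.9 RPKM, so the sum does not show how single markers changed. Markers of 4 other cell types are given beside the comparisons.

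The 8 enzymes that lead from acetyl-CoA to farnesyl and geranylgeranyl diphosphate each had their lowest value in H2AZ WT EBs. *Hmgcs1*, which makes HMG-CoA, had 84.2, 100 and 66.7 RPKM in ESCs and 33.7, 53.9 and 48.0 RPKM in EBs. *Acat2*, the cytosolic thiolase before it, stood at 44.0, 62.0 and 41.2 RPKM and then at 35.2, 42.6 and 43.4 RPKM. For *Hmgcs1* all 3 EB libraries lay below all 3 ESC libraries, while for *Acat2* the H2AZ-AP3 ESC library lay within the range of the EBs. *Mvk*, the mevalonate kinase, had 14.2, 16.1 and 12.2 RPKM at D0 and 9.53, 9.94 and 13.8 RPKM at D3. *Pmvk*, the next kinase, had 31.1, 40.2 and 33.2 RPKM and then 14.5, 19.9 and 20.9 RPKM. *Mvd*, which decarboxylates the product to isopentenyl diphosphate, had 41.6, 56.3 and 43.0 RPKM and then 17.7, 27.1 and 30.4 RPKM. *Pmvk* and *Mvd* were lower in every EB library than in any ESC library, while *Mvk* in H2AZ-AP3 EBs lay above *Mvk* in H2AZ-AP3 ESCs. *Idi1*, the isopentenyl diphosphate isomerase, had 72.1, 88.3 and 51.4 RPKM at D0 and 27.7, 47.1 and 50.8 RPKM at D3. *Fdps*, farnesyl diphosphate synthase, had 96.6, 156 and 86.8 RPKM and then 48.2, 76.4 and 80.1 RPKM. *Ggps1*, which adds a further isoprene unit, had 15.8, 13.6 and 13.0 RPKM and then 11.5, 14.0 and 13.2 RPKM. In H2AZ-AP3 the D0 and D3 levels of *Idi1* and *Ggps1* were nearly level, and *Fdps* had the highest single value of any member, in the ESC library labelled H2AZ KD.

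The 10 enzymes from squalene to cholesterol also had their lowest value in H2AZ WT EBs. *Fdft1*, squalene synthase, had 38.4, 53.1 and 42.5 RPKM at D0 and 25.9, 31.7 and 32.3 RPKM at D3. *Sqle*, squalene epoxidase, had 53.1, 59.7 and 40.9 RPKM and then 30.9, 45.4 and 47.7 RPKM. *Lss*, lanosterol synthase, had 39.1, 51.2 and 34.2 RPKM and then 16.1, 25.9 and 26.7 RPKM. *Fdft1* and *Lss* were lower in every EB library than in any ESC library, whereas *Sqle* was higher in H2AZ-AP3 EBs than in H2AZ-AP3 ESCs. *Cyp51*, which demethylates lanosterol, had 45.3, 64.4 and 44.9 RPKM at D0 and 18.5, 32.5 and 28.2 RPKM at D3. *Sc4mol*, the sterol methyl oxidase that acts after it, had 87.9, 107 and 113 RPKM and then 31.2, 56.4 and 60.4 RPKM. *Nsdhl*, its partner dehydrogenase, had 17.3, 19.2 and 11.7 RPKM and then 7.61, 11.3 and 11.3 RPKM. *Cyp51*, *Sc4mol* and *Nsdhl* each lay lower in every EB library than in any ESC library. *Hsd17b7*, a reductase of the same removal step, had 8.92, 8.40 and 5.44 RPKM at D0 and 3.40, 4.88 and 5.40 RPKM at D3. *Ebp*, a sterol isomerase, had 9.02, 9.53 and 10.7 RPKM and then 8.73, 8.89 and 8.84 RPKM. *Sc5d*, a sterol desaturase, had 16.6, 17.0 and 14.2 RPKM and then 10.4, 15.9 and 14.1 RPKM. *Ebp* was nearly level over all libraries. *Dhcr7*, the reductase of the last step to cholesterol, had 34.4, 39.7 and 29.6 RPKM at D0 and 14.1, 19.2 and 22.6 RPKM at D3.

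Among the regulators, *Insig1*, an inhibitor of SREBP that is itself transcribed under SREBP, varied most between the lowest and highest library. It had 109, 136 and 94.7 RPKM in ESCs and 46.2, 80.5 and 60.8 RPKM in EBs. *Insig2*, its paralogue, stood at 7.17, 7.04 and 8.32 RPKM and then at 9.32, 10.3 and 9.75 RPKM, and it was the 1 member that was higher in every EB library than in any ESC library. *Srebf2*, the gene of SREBP-2, which acts mainly on sterol genes, had 66.1, 72.1 and 76.4 RPKM at D0 and 42.0, 48.4 and 45.6 RPKM at D3. *Srebf1*, the gene of SREBP-1, had 16.1, 17.4 and 16.0 RPKM and then 12.0, 14.8 and 14.6 RPKM. The escort gene *Scap* had 12.9, 12.6 and 13.7 RPKM and then 10.3, 9.61 and 11.0 RPKM. These transcription factor and escort genes were lower in every EB library than in any ESC library. *Stard4*, a sterol transfer protein, had 13.6, 16.3 and 12.6 RPKM at D0 and 7.88, 15.5 and 10.3 RPKM at D3.

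The fatty acid enzymes were less alike. *Acly*, which releases acetyl-CoA from citrate, had 98.8, 131 and 101 RPKM at D0 and 77.7, 84.1 and 92.8 RPKM at D3. *Acss2*, which makes acetyl-CoA from acetate, had 5.64, 7.40 and 5.00 RPKM and then 5.33, 5.93 and 6.68 RPKM. *Acaca*, the carboxylase that commits it to fatty acids, had 19.0, 21.8 and 17.4 RPKM and then 9.58, 12.8 and 14.0 RPKM. *Fasn*, fatty acid synthase, had 50.2, 63.7 and 39.8 RPKM and then 36.0, 48.3 and 48.9 RPKM. *Acss2* and *Fasn* were above their D0 value in H2AZ-AP3 EBs and below it in the other lines. *Scd1*, a stearoyl-CoA desaturase, had 40.8, 45.9 and 34.6 RPKM at D0 and 11.4, 27.5 and 18.8 RPKM at D3. Its paralogue *Scd2* had 114, 128 and 103 RPKM and then 56.7, 85.3 and 80.0 RPKM. On mm9 *Scd1* spans chr19:44468941-44482199 on the minus strand and *Scd2* chr19:44368166-44381352 on the plus strand. *Elovl6*, which lengthens palmitate, had 41.6, 42.7 and 37.8 RPKM and then 24.6, 27.9 and 23.9 RPKM. The desaturases of polyunsaturated fatty acids were *Fads1*, with 25.3, 30.8 and 23.5 RPKM and then 20.1, 24.6 and 20.8 RPKM, and *Fads2*, with 36.7, 42.5 and 24.6 RPKM and then 21.2, 33.7 and 31.0 RPKM. Both *Scd* genes and *Elovl6* were lower in every EB library than in any ESC library.

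**Figure D1:**
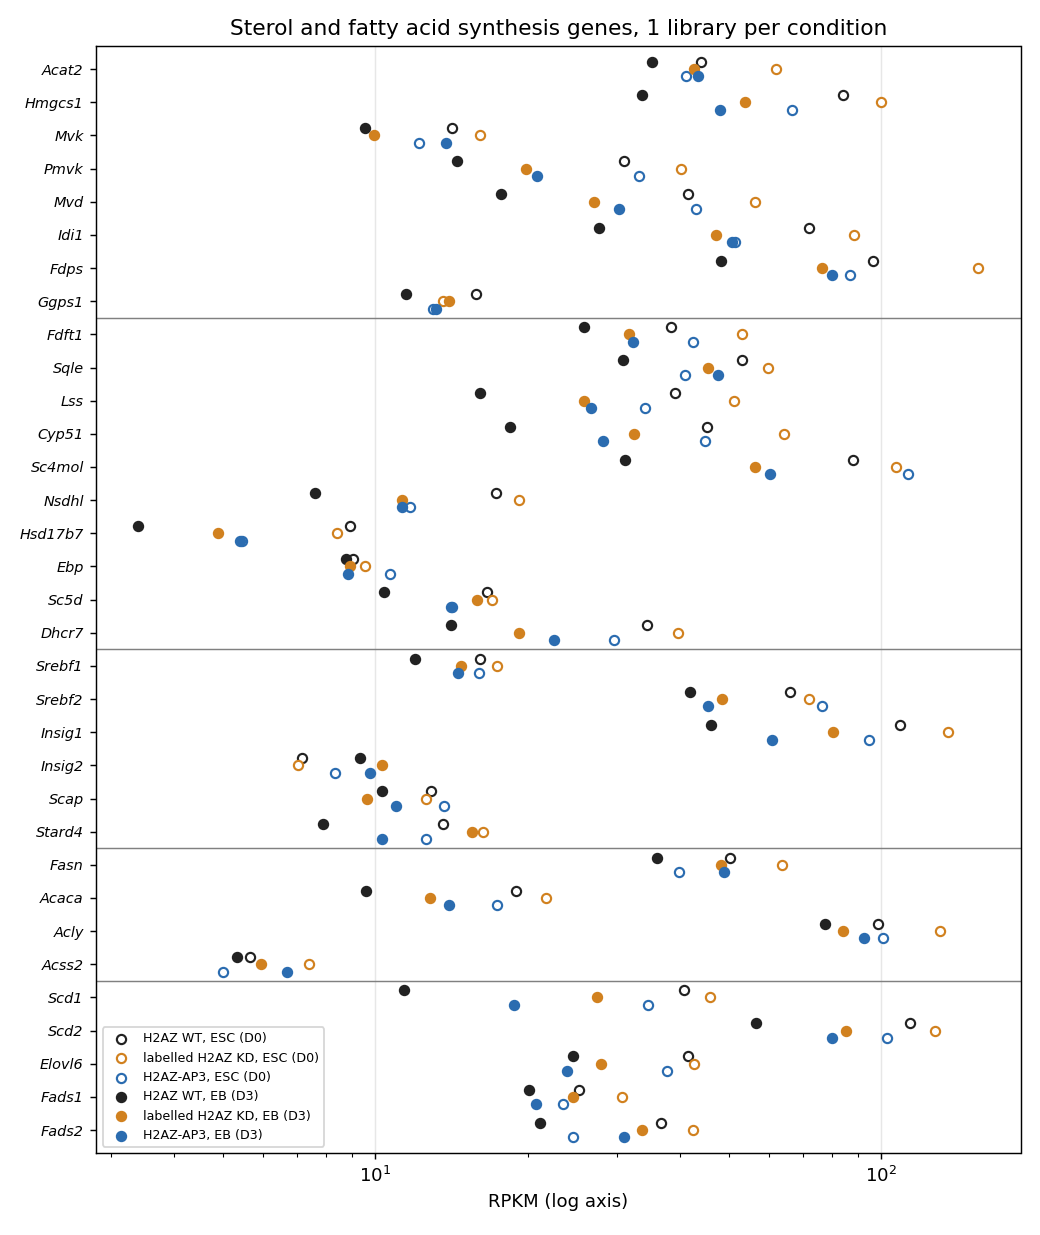
RPKM on a log axis of each member in the 6 libraries, with hollow points for ESCs (D0), filled points for EBs (D3) and colours for the lines, 1 library per point. H2AZ WT EBs gave the lowest value of the 6 for 29 of 33 members (12.3% of all rows), and ESCs labelled H2AZ KD the highest for 26 (11.8% of all rows).

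A gene was called higher or lower when its RPKM differed by over 1.5-fold (0.58 on the log2 scale) among rows with a mean of at least 1 RPKM, which all 33 members reached among 11842 rows. From ESCs to EBs in H2AZ WT, 21 of 33 members were lower and 0 were higher, where 9.53% of all rows were lower and 11.4% higher. The members' median log2 ratio was -0.78, beside 0.04 over all rows, and 14 members fell by over 2-fold, where 4.32% of all rows did. *Scd1* was 3.56-fold lower (log2 -1.83, counting interval -1.93 to -1.74), *Sc4mol* 2.82-fold (-1.50), *Hsd17b7* 2.63-fold (-1.39), *Idi1* 2.60-fold (-1.38) and *Hmgcs1* 2.50-fold (-1.32). The squalene and sterol enzymes had 8 of 10 members lower (median -1.23), the mevalonate enzymes 5 of 8 (median -1.05) and the desaturases and elongase 4 of 5 (median -0.79). The regulators had 3 of 6 lower (*Insig1* -1.24, *Stard4* -0.78 and *Srebf2* -0.66), and of the 4 fatty acid synthesis genes *Acaca* was lower, at -0.99. *Mvk* (-0.58) and *Fdft1* (-0.57) lay just outside the threshold. In a bulk sample, fewer cells that express a gene and less RNA of it per cell cannot be told apart.

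In the line labelled H2AZ KD, 19 of 33 members were lower at D3 and 0 were higher, where 8.86% and 11.5% of all rows were. Their median was -0.64, beside 0.04 over all rows, and 4 members fell by over 2-fold, where 4.23% of all rows did. They were *Mvd* (-1.06), *Dhcr7* (-1.05), *Fdps* (-1.03) and *Pmvk* (-1.02). The mevalonate enzymes had 6 of 8 lower and the squalene and sterol enzymes 7 of 10. Of the members called lower in H2AZ WT, *Srebf2* (-0.57), *Sqle* (-0.39), *Fads2* (-0.33), *Sc5d* (-0.10) and *Stard4* (-0.07) were not called here.

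In H2AZ-AP3, 7 of 33 members were lower at D3 and 0 were higher, where 11.5% and 10.8% of all rows were. These were *Sc4mol* (-0.91), *Scd1* (-0.88), *Srebf2* (-0.75), *Pmvk* (-0.67), *Cyp51* (-0.67), *Elovl6* (-0.66) and *Insig1* (-0.64). The median of all members was -0.28, beside 0.05 over all rows, and no member fell by over 2-fold, where 4.89% of all rows did. *Idi1* (-0.02), *Hsd17b7* (-0.01) and *Nsdhl* (-0.05), which fell in the other lines, differed between the days by less than 0.1 on the log2 scale in H2AZ-AP3. The decrease was largest in H2AZ WT for 23 of 33 members, where 29.0% of all rows had their lowest ratio in that line. The difference between the lines in these day ratios was not tested, as each ratio rests on 1 library per day. *Pmvk*, *Cyp51*, *Sc4mol*, *Insig1*, *Scd1* and *Elovl6*, 6 of 33 members, were called lower in each line, where 3.87% of all rows were.

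Over all libraries together, every EB value lay below every ESC value for 22 of 33 members, where 13.7% of all rows had this order, and above for *Insig2*, where 19.0% of all rows did. The day difference was then tested over the 3 lines with limma, each line's ESC and EB libraries paired, a fit added after the data were seen. It takes the lines as replicates of the day although they differ in H2A.Z, and it leaves 2 residual degrees of freedom. At an adjusted p under 0.05, 7 of 33 members were lower and 0 higher, where 4.04% and 3.39% of all rows were. These were *Sc4mol* (-1.11, SE 0.17, limma adjusted p = 0.027), *Cyp51* (-0.98, SE 0.16, 0.032), *Pmvk* (-0.93, SE 0.15, 0.028), *Mvd* (-0.93, SE 0.18, 0.047), *Insig1* (-0.88, SE 0.17, 0.044), *Elovl6* (-0.68, SE 0.12, 0.04) and *Srebf2* (-0.66, SE 0.13, 0.045), each lower at D3 in 3 of 3 lines. *Scd1*, with the largest mean decrease (-1.15, SE 0.24), missed the threshold (limma adjusted p = 0.055), and 19 members were lower at an unadjusted p under 0.05, where 11.5% of all rows were. The count of 7 fell to 0 without the H2AZ WT line, where 1.11% of all rows were lower, and to 0 without the H2AZ KD line (1.67% of all rows), and it was 14 without the H2AZ-AP3 line (4.90% of all rows).

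Feeder fibroblast markers, which the last passage was meant to lose, summed to between 24.2 and 46.4 RPKM at D0 and between 7.68 and 13.3 RPKM at D3 over 8 genes. In H2AZ WT the collagens *Col1a1* (-2.67) and *Col1a2* (-3.32) fell between the days while *Thy1*, which made up 9.19 RPKM of the D3 sum, rose (2.40). Epiblast and neural markers summed to between 11.1 and 20.2 RPKM at D0 and between 48.0 and 50.9 RPKM at D3 over 5 genes, and visceral endoderm markers between 5.62 and 18.9 RPKM at D0 and between 47.8 and 164 RPKM at D3 over 7 genes. Of 6 ESC markers, 1 was called lower at D3 in H2AZ WT, 3 in H2AZ KD and 3 in H2AZ-AP3 (9.53%, 8.86% and 11.5% of all rows), and 0 higher. *Klf4* was among them in each line (-2.79, -2.94 and -2.15). The part of these cell mixtures in the members' decrease was not tested.

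**Figure D2:**
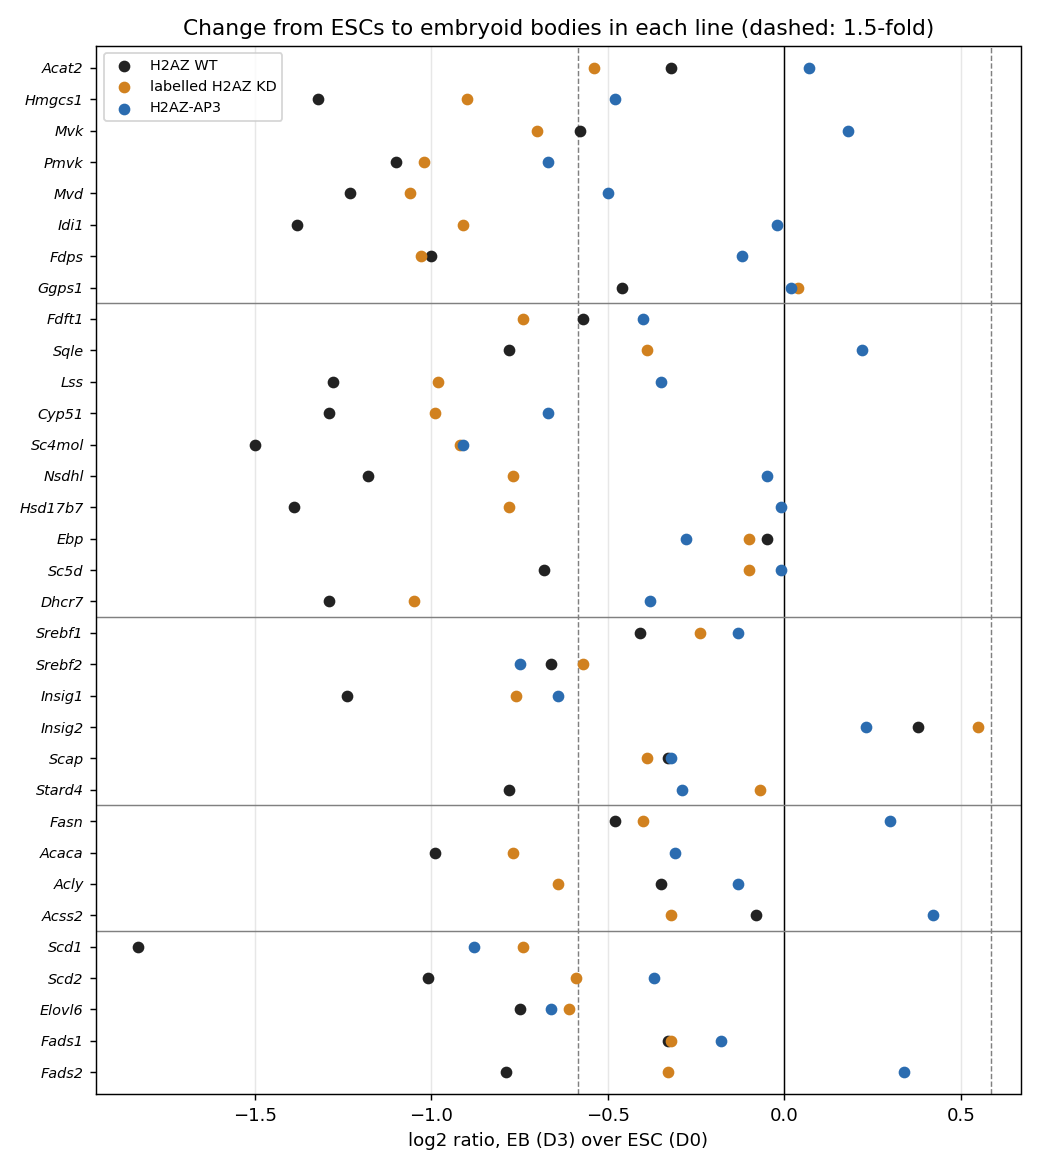
Log2 ratio of RPKM at D3 over D0 for each member in each line, 1 library per day, with dashed lines at 1.5-fold and rules between the role groups. Black points (H2AZ WT) lie left of the lower dashed line for 21 members, and blue points (H2AZ-AP3) for 7.

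At D3, 10 of 33 members were called higher in H2AZ-AP3 EBs than in H2AZ WT EBs and 0 lower, 6 of them squalene and sterol enzymes, where 4.05% and 5.21% of all rows were. The median of the members was 0.50, beside 0.00 over all rows, and 32 of 33 ratios were above 0, the exception being *Elovl6* (-0.04). *Sc4mol* was 1.94-fold higher (log2 0.95, counting interval 0.86 to 1.05) and *Idi1* 1.83-fold (0.88, 0.79 to 0.96). *Mvd* (0.78), *Fdps* (0.73), *Lss* (0.73), *Scd1* (0.71), *Dhcr7* (0.69), *Hsd17b7* (0.67), *Sqle* (0.63) and *Cyp51* (0.61) made up the rest. By role, 6 of 10 squalene and sterol enzymes (median 0.62), 3 of 8 mevalonate enzymes (median 0.53) and 1 of 5 desaturases and elongase were called. None of the 6 regulators (median 0.20) and none of the 4 fatty acid synthesis genes (median 0.38) passed the threshold. *Srebf2* itself was at 0.12 and *Srebf1* at 0.28, and *Nsdhl* (0.57) lay just outside.

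The EBs labelled H2AZ KD were compared with the same H2AZ WT library, so these ratios share their denominator with those of H2AZ-AP3, and the same library is the numerator of the D3 to D0 ratios of H2AZ WT. A shift in that library moves the latter in the opposite direction. Here 13 of 33 members were called higher and 0 lower, where 3.23% and 4.53% of all rows were. The median was 0.45, beside -0.03 over all rows, and *Scap* (-0.10) was the 1 member below 0. *Scd1* was 2.40-fold higher (1.26, counting interval 1.17 to 1.36), *Stard4* 1.96-fold (0.97, 0.86 to 1.09) and *Sc4mol* 1.81-fold (0.86, 0.76 to 0.95). The mevalonate enzymes *Idi1* (0.77), *Hmgcs1* (0.68), *Fdps* (0.67) and *Mvd* (0.61), and the sterol enzymes *Cyp51* (0.81), *Lss* (0.69) and *Sc5d* (0.61), were called. So were the inhibitor *Insig1* (0.80) and the desaturases *Fads2* (0.67) and *Scd2* (0.59). *Nsdhl* (0.57) and *Sqle* (0.56) lay just outside, and none of the 4 fatty acid synthesis genes (median 0.29) was called.

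Set side by side, *Insig1* was at 0.39 in H2AZ-AP3 and 0.80 in H2AZ KD, *Stard4* at 0.38 and 0.97, *Scd1* at 0.71 and 1.26, *Dhcr7* at 0.69 and 0.45, and *Mvk* at 0.54 and 0.06. Compared directly without the H2AZ WT library, H2AZ-AP3 EBs against EBs labelled H2AZ KD had 0 members called higher and 1 lower, *Stard4* (-0.59), where 5.49% and 5.07% of all rows were. The members' median in that comparison was 0.01, beside 0.02 over all rows, and *Scd1* lay at -0.55 and *Mvk* at 0.47. Averaged over both days in the limma fit, 0 of 11842 rows passed an adjusted p of 0.05 for H2AZ-AP3 or for H2AZ KD against H2AZ WT, and at an unadjusted p under 0.05, 1 of 33 members was higher in H2AZ-AP3 (2.66% of all rows), 4 of 33 in H2AZ KD (0.777% of all rows) and 0 lower in either (3.24% and 2.35% of all rows). H2AZ WT had the lowest of the 3 EB values for 31 of 33 members, where 28.0% of all rows had it. Visceral endoderm markers summed to 47.8 RPKM in H2AZ WT EBs, 164 RPKM in EBs labelled H2AZ KD and 56.4 RPKM in H2AZ-AP3 EBs over 7 genes, while they were at or below 18.9 RPKM at D0. Of the 5 with a mean of at least 1 RPKM (median 2.22 in KD against H2AZ WT EBs), *Rbp4* (2.22), *Cubn* (1.83) and *Amn* (1.25) were higher in KD. *Apoa1* (2.70) and *Ttr* (2.24) were too, but they reach that mean only through the KD EB library, at 8.57 RPKM each. Their calls in KD are thus partly set by the filter. In H2AZ-AP3 against H2AZ WT EBs, 0 of the 5 were higher and 2 lower (*Rbp4* -1.01 and *Ttr* -0.71, median -0.56). There *Cubn* (0.40) and *Amn* (0.31), which make up most of the sum, lay above 0. The feeder fibroblast collagens *Col1a1* and *Col1a2* were higher in H2AZ-AP3 than in H2AZ WT EBs (0.74 and 0.86) and lower in KD (-0.73 and -1.13), and *Thy1* was lower in both (-1.37 and -0.74). Primitive streak and mesoderm markers summed to between 2.82 and 3.60 RPKM at D3 over 6 genes, with *Msgn1* at 0 in every library. Epiblast and neural markers summed to 48.5, 48.0 and 50.9 RPKM at D3. Of these 5 genes, *Sox1* was higher in H2AZ-AP3 than in H2AZ WT EBs (0.79), *Pax6* was lower in KD than in H2AZ WT EBs (-0.92), and *Pax6* (1.29) and *Sox1* (0.92) were higher in H2AZ-AP3 than in KD EBs. ESC markers summed to 873, 702 and 861 RPKM at D3, with *Tbx3* lower in H2AZ-AP3 than in H2AZ WT EBs (-0.63), and the part of these markers in the members' ratios was not tested.

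**Figure D3:**
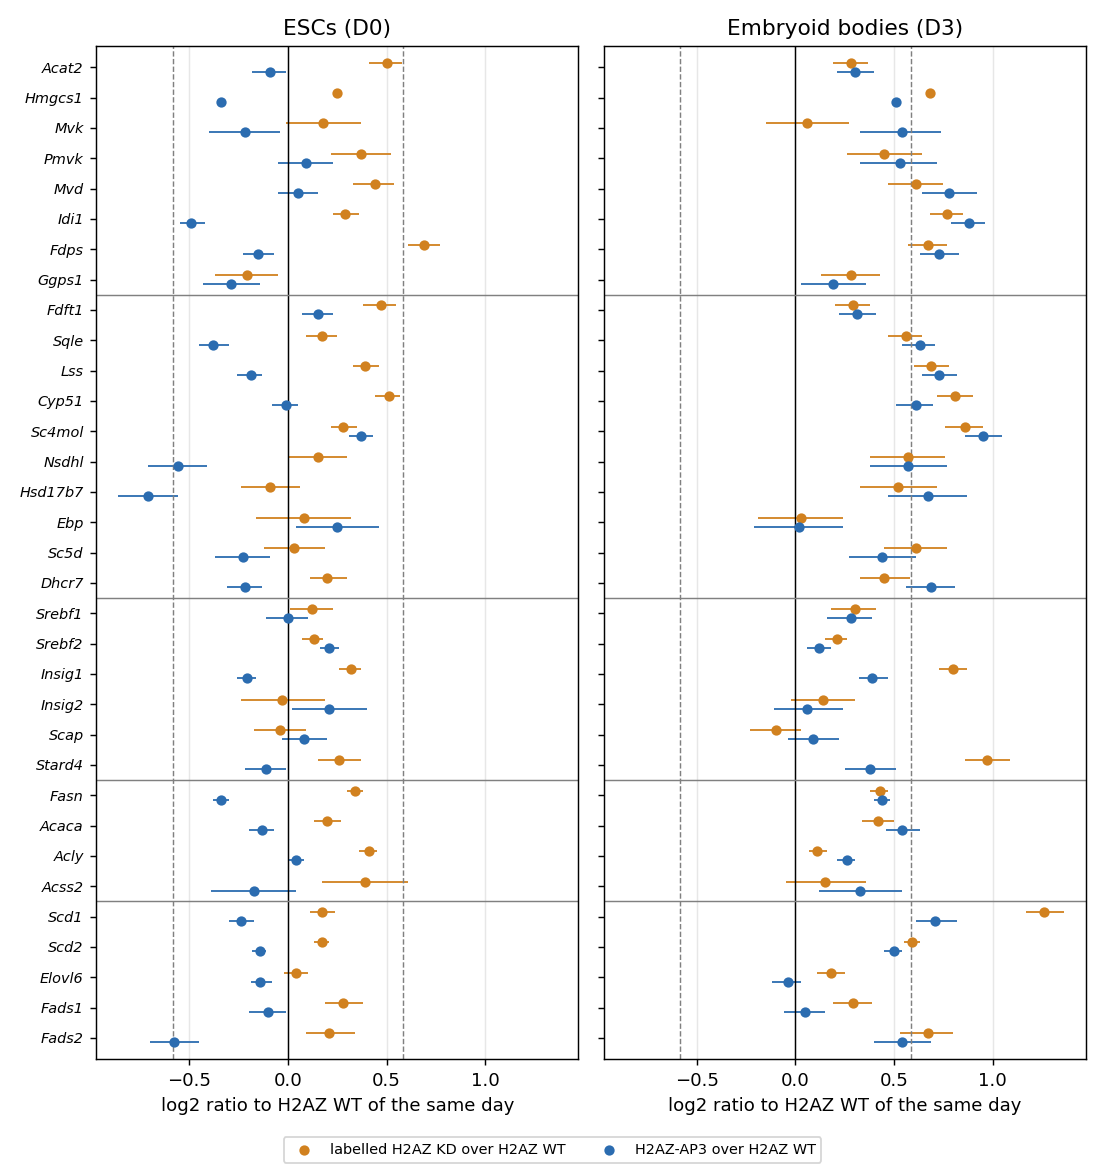
Log2 ratio of RPKM over H2AZ WT for each member at D0 (left) and D3 (right), in H2AZ-AP3 and in the libraries labelled H2AZ KD, with bars for the counting interval (95%; none for *Hmgcs1*) and dashed lines at 1.5-fold. At D0 most points lie between the dashed lines, with 1 call in each line, and at D3 the points lie to the right of 0 for 32 of 33 members in each line.

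In ESCs, 1 member was called in each comparison with H2AZ WT. H2AZ-AP3 against H2AZ WT had 0 of 33 members called higher and 1 lower, *Hsd17b7* (-0.71), where 6.80% and 5.49% of all rows were. The median was -0.14, beside 0.00 over all rows, and 24 of 33 ratios were below 0, among them *Fads2* (-0.58) and *Nsdhl* (-0.56) just outside the threshold. *Sc4mol* went the other way, at 0.37. The ESC library labelled H2AZ KD had 1 member called higher than H2AZ WT, *Fdps* (0.69), and 0 lower, where 2.94% and 4.02% of all rows were. Its median was 0.21, beside -0.03 over all rows, and 29 of 33 ratios were above 0.

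H2AZ-AP3 ESCs against ESCs labelled H2AZ KD had 0 members called higher and 9 lower, where 10.5% and 6.13% of all rows were. The members called were *Fdps* (-0.84), *Fads2* (-0.79), *Idi1* (-0.78), *Nsdhl* (-0.71), *Fasn* (-0.68), *Hsd17b7* (-0.62), *Acat2* (-0.59), *Hmgcs1* (-0.59) and *Lss* (-0.59). The median was -0.39, beside 0.03 over all rows. The KD library was the highest of the 3 ESC libraries for 26 of 33 members (29.8% of all rows) and the H2AZ-AP3 library the lowest for 24 (36.8% of all rows). The H2AZ-AP3 ESC library was also the deepest and held the highest sum of feeder fibroblast markers (46.4 RPKM, beside 27.8 and 24.2 RPKM). Against ESCs labelled H2AZ KD it had 4 of 5 epiblast and neural markers called lower (median -0.80), *Otx2* (-1.90), *Pou3f1* (-0.80), *Pax6* (-0.68) and *Fgf5* (-3.39). *Fgf5* is low in ESCs, at 0.106 against 1.11 RPKM, and passes the filter through its EB values (5.51 to 7.45 RPKM). Of 6 ESC markers, *Klf4* (-0.99) and *Sox2* (-0.84) were lower. The visceral endoderm markers *Amn* (1.63), *Cubn* (1.61) and *Rbp4* (0.61) were higher (7-gene sums of 18.9 and 6.83 RPKM). *Ttr*, at 0 against 0.043 RPKM, was also past the threshold but is too low in ESCs to read. Against H2AZ WT ESCs, 2 of 6 ESC markers (*Klf4* -0.88 and *Sox2* -0.80) and 2 of 5 epiblast and neural markers (*Otx2* -1.62 and *Fgf5* -2.34) were lower. Here too *Fgf5* was low, at 0.106 against 0.539 RPKM. None of either list was higher, with *Pou5f1* at 0.36 and *Sox1* at 0.38. The visceral endoderm markers *Cubn* (2.19) and *Amn* (1.83) and the collagens *Col1a1* (0.66) and *Col1a2* (0.80) were higher in that comparison. The part of depth and of these markers in the members' ratios at D0 was not tested.

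**Figure D4:**
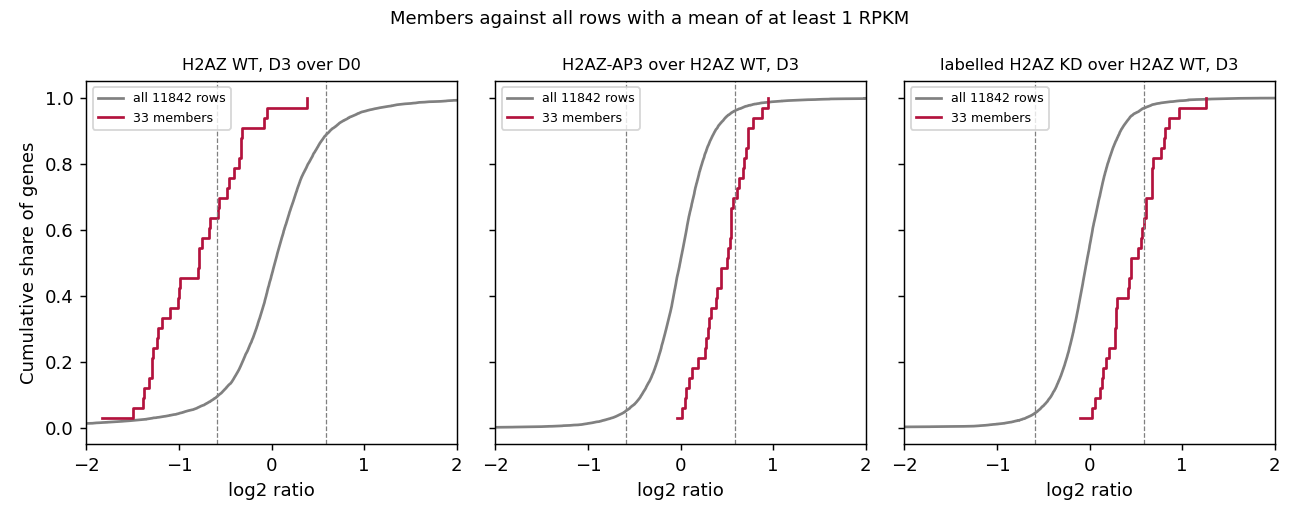
Cumulative share of the 33 members (red) and of all 11842 rows (grey) by log2 ratio, for H2AZ WT D3 over D0 and for H2AZ-AP3 and H2AZ KD over H2AZ WT at D3, with dashed lines at 1.5-fold. The members' curve has its median at -0.78, 0.50 and 0.45, and the curve of all rows at 0.04, 0.00 and -0.03.

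Neighbouring lipid genes outside the members were described by the same counts. In H2AZ-AP3 against H2AZ WT EBs, none passed 1.5-fold among 20 fatty acid and glycerolipid enzymes (median 0.10), 10 fatty acid oxidation genes (median -0.06), 9 isoprenoid-using enzymes (median -0.03), 9 sterol ester and sterol transport genes (median -0.04) and 6 SREBP processing genes and INSIG partners (median 0.11). Of 6 genes of LXR, the receptor that raises sterol export, and its targets, the median was -0.26 and 2 were lower, *Abcg1* (-0.72) and *Mylip* (-0.72). In EBs labelled H2AZ KD against the same H2AZ WT library, the medians in that order were 0.12, -0.10, 0.07, 0.16, 0.15 and -0.21. There the fatty acid elongase *Elovl1* was higher (0.62, at 9.45 against 6.15 RPKM), as was *Cyp27a1*, a mitochondrial sterol hydroxylase (0.83), and the sterol exporter *Abca1* was lower (-0.82). *Abcg1*, *Mylip*, *Cyp27a1* and *Abca1* are low genes that were named after their values were seen.

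Some member values may hold reads of other genes. On the annotated transcripts, 84.2% of the 40-base windows of *Idi1* also occur in another annotated gene, 61% of those of *Fdps* and 48% of those of *Acat2*, while *Fdft1* shares 14.8% and its exons overlap other genes over 26.9% of their bases. The strand of the reads is not stated in the sources used here. *Acat2*, *Fdps* and *Idi1* were left out in an alternative added after the data were seen. Then 8 of 30 members were higher in H2AZ-AP3 (4.05% of all rows) and 11 of 30 in H2AZ KD (3.23%) than in H2AZ WT EBs. From D0 to D3 in H2AZ WT, 19 of 30 fell (9.53% of all rows). *Fdps*, the 1 member called higher in ESCs labelled H2AZ KD, is itself left out here, so that count becomes 0 by the choice of genes.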

How the data were processed

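RNA-Seq had been done once per line and day. The authors selected poly(A) RNA, aligned reads to mm9 with Tophat and Bowtie 0.12.7, allowing 2 mismatches and 20 locations, and deposited RPKM per gene from Cufflinks 1.3.0. The 6 columns of log2 ratios between lines in the same table were not used. Ratios were computed here as log2((RPKM + 0.001)/(RPKM + 0.001)), and a gene was called past 1.5-fold where its mean over the 6 libraries was at least 1 RPKM. Day was also tested over the 6 libraries with limma 3.58.1 (R 4.3.3) on log2(RPKM + 0.001), with the line as a block and Benjamini-Hochberg adjustment over 11842 rows, a fit added after the data were seen. Gene starts were raised by 1. Depth was estimated from the value of 1 read in 3696 genes with transcripts of at least 1500 bases, and counting intervals (95%) rest on it. The scripts were tested on simulated data, with Python 3.11.15, numpy 2.4.6, pandas 2.3.3 and matplotlib 3.10.9. The members and the 11 other lists were chosen with earlier results of these data known. All members are named, and of the other lipid genes those past 1.5-fold over H2AZ WT at D3 with a mean of at least 5 RPKM, up to 4 per list. Alternatives were pseudocounts of 0.1 and 1 RPKM, a 2-fold threshold, no filter, centring on the median, summing rows of a symbol, and leaving out 3 members that share sequence. For the limma fit they also were no block and leaving out each line.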

Additional observations from a re-analysis of the deposited data

Results flagged for a closer look

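*Hsd17b7*, a reductase of the sterol demethylation step, was lower in H2AZ-AP3 than in H2AZ WT ESCs (log2 -0.71) and higher in EBs (0.67), so the ratio took opposite signs past 1.5-fold on the 2 days. H2AZ-AP3 itself was nearly level, at 5.44 and 5.40 RPKM, while H2AZ WT went from 8.92 to 3.40 RPKM. With a pseudocount of 1 RPKM the ratio in EBs was 0.54 and was no longer past 1.5-fold. Each ratio rests on 1 library per condition, and the difference between the days was not tested.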

How the results depend on the processing

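With a 2-fold threshold, no member was called higher in H2AZ-AP3 than in H2AZ WT at D3 (0, where 1.27% of all rows were), and 1, *Scd1*, in H2AZ KD (0.963%). The same threshold left 0 members lower in H2AZ-AP3 against H2AZ WT at D0 (166 of 11842 rows), 0 higher in H2AZ KD against H2AZ WT at D0 (0.912% of all rows), 0 lower in H2AZ-AP3 against H2AZ KD at D0 or D3 (2.03% and 1.25%), 4 lower from D0 to D3 in H2AZ KD (4.23%), and 0 in H2AZ-AP3 (4.89%). With a pseudocount of 1 RPKM, the members lower in H2AZ-AP3 against H2AZ KD went from 9 to 5 at D0 and from 1 to 0 at D3. With the main pseudocount 6.13% and 5.07% of all rows were lower, and the share with 1 RPKM is not given, so these counts cannot be set against it. Without *Acat2*, *Idi1* and *Fdps*, 0 members were higher in H2AZ KD than in H2AZ WT at D0, because *Fdps* was the 1 member called there. In the limma fit of day over the 3 lines, with 7 members lower when the line was the block, 5 were lower with no block (4.35% of all rows), 9 with a pseudocount of 0.1 RPKM (4.66%), 14 with 1 RPKM (5.21%) and 0 with no filter (0.102%), where rows at or near 0 enter and 18688 were tested, and the count ran from 0 to 14 as each line was left out. The pairing comes from the line labels. The remaining counts stayed within 1.5 times under these alternatives and under a pseudocount of 0.1 RPKM, no filter, centring and summed rows. The medians of single comparisons kept their direction, except that of H2AZ-AP3 against H2AZ KD at D3 (0.01), which was -0.01 when centred and 0.00 without *Acat2*, *Idi1* and *Fdps*. Single calls near the threshold moved: centring added 6 of 297 member ratios and a pseudocount of 1 RPKM removed 10, among them *Cyp51* (0.58) and *Hsd17b7* (0.54) in H2AZ-AP3 against H2AZ WT at D3. For single comparisons of 1 library against 1, no paired fit was made. Differences between cultures cannot be told apart from differences between lines or days.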

Other observations

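A few lipid genes outside the members had the opposite direction to the members between the days, and they were picked after their values were seen. *Me1*, the malic enzyme that supplies NADPH for fatty acid synthesis, stood at 11.7, 11.0 and 11.7 RPKM in H2AZ WT, H2AZ KD and H2AZ-AP3 ESCs and had risen to 28.6, 40.6 and 24.9 RPKM in EBs, by log2 ratios of 1.29, 1.89 and 1.10. *Soat1*, which esterifies cholesterol for storage, stood at 11.6, 10.4 and 14.4 RPKM and then at 22.4, 30.8 and 24.0 RPKM, with log2 ratios of 0.95, 1.57 and 0.74. *Elovl5*, an elongase of polyunsaturated fatty acids, went with the members, at 46.4, 52.9 and 47.8 RPKM and then 29.8, 39.7 and 36.2 RPKM, and it passed 1.5-fold in H2AZ WT alone (-0.64).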
